A study of Mus musculus with 2 samples.

Results

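Macrophages that carry Lyve1 and Folr2, the resident type of the arterial wall, were followed in the aortic arch of Apoe-/- mice. They numbered 421 of the 8155 cell barcodes kept from both libraries, 221 of 5416 in the control (ND) group and 200 of 2739 in the HFD group. A barcode was counted as a member when C1qa, C1qb and C1qc, the chains of complement C1q, made up at least 0.2% of its UMIs (unique molecular identifiers, a count of captured transcripts), when it did not hold UMIs of both endothelial genes Pecam1 and Cdh5, when it had at least 3 UMIs of Folr2, Lyve1, Cd163, Fcna and Cd209f together, and when these were not outnumbered by UMIs of the foam cell genes Gpnmb, Trem2, Mmp12, Atp6v0d2 and Syngr1. The members were thus chosen by measured values, and what those 13 macrophage genes show between the groups of cells is description only. The other barcodes over the C1q limit served for comparison: 209 with at least 3 UMIs of the foam cell genes and more of these than of the resident genes, called foam-type here, and 206 that met neither rule, called remaining.

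Both libraries came from male C57BL/6 mice with a germline deletion of Apoe, 16 weeks old, so the controls carried the deletion too. The ND mice received a normal diet and the HFD mice a diet high in fat and cholesterol for about 12 weeks after weaning. The aortas of 2 mice were pooled into 1 library for each diet. With 1 library per diet, no difference between diets could be tested, and mice, digestion, library and diet cannot be told apart. Every interval given is an exact 95% interval that covers counting error only.

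Resident macrophages of the arterial wall lie mainly in the adventitia, the outer coat of the vessel. They take up hyaluronan, folate, haemoglobin and apoptotic cells through surface receptors, and much of the population is laid down early in life and renews itself locally. Foam cells are macrophages of the plaque that have filled with lipoprotein lipid, and they express another set of genes, led by Gpnmb, Trem2, Spp1 and Fabp5. Of the genes that defined the members, Folr2 encodes folate receptor beta, Lyve1 a hyaluronan receptor shared with lymphatic endothelium, Cd163 the scavenger receptor for haemoglobin bound to haptoglobin, Fcna the lectin ficolin A, and Cd209f a C-type lectin of the Cd209 family.

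The sequences just before the starts of Folr2 and Fcna, and of Mrc1 and Timd4 among other resident genes, are shown because PU.1, the master regulator of macrophages, and MAF, a factor of resident macrophages, are known to act at such promoters. They are RefSeq sequences of build GRCm38.p6 on the strand of the gene, and bases inside the annotated gene were left out. Capitals mark the letters GAGGAA, the core of PU.1 sites, and TGCTGA, a core of MAF sites, each searched on both strands, so that TTCCTC and TCAGCA are the same letters on the other strand.
Folr2, chr7:101857195-101857440, minus strand: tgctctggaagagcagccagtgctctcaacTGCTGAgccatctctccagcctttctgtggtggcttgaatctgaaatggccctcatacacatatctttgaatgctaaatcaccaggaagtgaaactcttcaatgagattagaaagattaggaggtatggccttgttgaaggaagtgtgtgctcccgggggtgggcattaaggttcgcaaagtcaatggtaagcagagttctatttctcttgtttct
Fcna, chr2:25628031-25628224, minus strand: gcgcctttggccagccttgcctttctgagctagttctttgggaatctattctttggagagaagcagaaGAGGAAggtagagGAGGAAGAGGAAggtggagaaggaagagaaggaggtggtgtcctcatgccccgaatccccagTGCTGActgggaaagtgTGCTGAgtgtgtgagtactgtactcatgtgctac
Mrc1, chr2:14229164-14229391, plus strand: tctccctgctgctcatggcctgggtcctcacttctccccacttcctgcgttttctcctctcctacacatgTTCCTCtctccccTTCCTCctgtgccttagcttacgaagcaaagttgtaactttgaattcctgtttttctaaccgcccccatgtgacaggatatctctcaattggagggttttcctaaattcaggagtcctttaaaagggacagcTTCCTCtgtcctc
Timd4, chr11:46810549-46810798, plus strand: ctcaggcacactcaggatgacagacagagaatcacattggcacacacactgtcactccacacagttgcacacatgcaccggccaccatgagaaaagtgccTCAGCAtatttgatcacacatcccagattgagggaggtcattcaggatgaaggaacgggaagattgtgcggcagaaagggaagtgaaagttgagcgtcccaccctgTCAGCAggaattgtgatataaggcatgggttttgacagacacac
In the 250 bases before each RefSeq start, GAGGAA stood in 1 of 5 promoters of the defining genes (Folr2 has several starts, and 4 of the genes were matched: Folr2, Cd163, Fcna and Cd209f), in 12 of 21 promoters of 18 other resident genes, and in 23.3% of all 32851 promoters. TGCTGA stood in 3 of 5, in 4 of 21 and in 16.1%. Of the other resident genes, F13a1 and Selenop also have several starts. Stretches before the Selenop starts overlap, so the same copy of the PU.1 letters was counted for more than 1 of its promoters. The motifs can share the bases GA where they overlap. The Fcna stretch holds 3 copies of the PU.1 letters, 182, 169 and 163 bases before the start, followed by the MAF letters at 107 and 90 bases. A match of letters is a description and does not show that a factor binds there.

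The members carried the general macrophage genes. Csf1r, the receptor for the growth factor CSF1, stood at 1090 CPM in ND and 793 CPM in HFD members, where CPM is the number of UMIs of a gene per 1000000 UMIs summed over the members of a library. Adgre1, which encodes F4/80, stood at 546 and 455 CPM. Of 14 general macrophage genes, none was 2-fold higher in HFD, and 1, the fractalkine receptor Cx3cr1, was lower in HFD (37.8 and 13.4 CPM). Of all 4916 genes compared between diets, 0.997% were higher and 3.4% lower, so the count is near that of all genes. The difference in Cx3cr1 fell short of 2-fold when members with over 20% mitochondrial UMIs were left out. Because Lyve1 also marks lymphatic endothelium, its 6 markers were summed: they gave 7.20 CPM in ND and 10.7 CPM in HFD members against 133 and 150 CPM in fibroblasts, and Ccl21a, Mmrn1 and Prox1 were at or near 0. T cell markers summed to 3.60 and 21.4 CPM, with 5 of 7 genes at 0 in ND and 1 in HFD. Smooth muscle markers summed to 15.3 and 15.2 CPM, adipocyte markers to 17.1 and 13.4 CPM, and mesothelial markers to 7.20 and 0 CPM. The members thus held little RNA of these types.

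Other RNA did differ between the libraries and bears on every comparison by diet. Haemoglobin and Alas2 summed to 902 CPM in ND and 9511 CPM in HFD members, and Hbb-bs, the most abundant, was found in 83.5% of HFD members, 70.8% of HFD fibroblasts and 90.5% of HFD T cells, so that it was spread over unrelated cell types of that library. The airway genes Scgb1a1, Scgb3a2, Cyp2f2 and Bpifa1, with Sftpc, summed to 3847 CPM in ND and 0.893 CPM in HFD. Of the 3319 UMIs of Scgb1a1 in ND members, 3171 lay in 1 barcode, and a UMI of it was found in 45.7% of ND members, 32.1% of ND fibroblasts and 40.0% of ND T cells. Airway RNA was thus present across the ND library beside the 1 barcode that held most of it. Fibroblast markers summed to 1607 CPM in ND and 460 CPM in HFD members, against 43681 and 32169 CPM in fibroblasts themselves, with Gsn the most abundant. Summed over members, stromal RNA was therefore higher in ND, and red cell RNA in HFD. Col1a1 was found in 7.24% of ND and 5.00% of HFD members. Without the 19 ND and 11 HFD members with over 2 UMIs of other lineages, the log2 ratio, HFD over ND, was −0.23 for Dcn and −0.59 for Col1a2. A few members thus carried much of these 2 differences, although leaving them out itself removes collagen UMIs. B cell markers summed to 497 and 277 CPM, led by Ighm, with 0 of 6 genes at 0 in ND and 2 in HFD. Neutrophil markers summed to 42.3 and 174 CPM, and 97 UMIs of S100a9 in HFD members stood against 3 in ND. The share of mitochondrial UMIs had a median of 16.1% in ND and 22.5% in HFD members, and the median depth was 4506 UMIs (1283 to 16325) and 5393.5 UMIs (1408 to 15707). Their part in the differences by diet was not tested except where a value is given. No member barcode occurred in both libraries, and 1 kept barcode did.

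Resident macrophages made up a larger share of all kept barcodes in HFD than in ND, and a smaller share of the macrophages. They were 4.08% (3.57 to 4.64) of kept barcodes in ND and 7.30% (6.36 to 8.34) in HFD. Among barcodes with a UMI of Ptprc, the pan-leukocyte gene CD45, they were 11.4% of 1531 in ND and 20.6% of 778 in HFD. Among the 364 ND and 472 HFD barcodes over the C1q limit, they were 60.7% (55.5 to 65.8) in ND and 42.4% (37.9 to 47.0) in HFD. The foam-type share was lower in ND, 12.6% (9.40 to 16.5) against 34.5% (30.2 to 39.0) in HFD, and the remaining macrophages stood at 26.6% and 23.1%. A share of cells gives no number of cells per vessel. It also rests on the limit of 30% mitochondrial UMIs: 119 of 319 HFD barcodes that met the rule exceeded it, against 11 of 232 in ND, and without it the share of kept barcodes was 3.01% in ND and 3.20% in HFD, while that of macrophages was 48.6% and 35.5%.

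**Figure D1:**
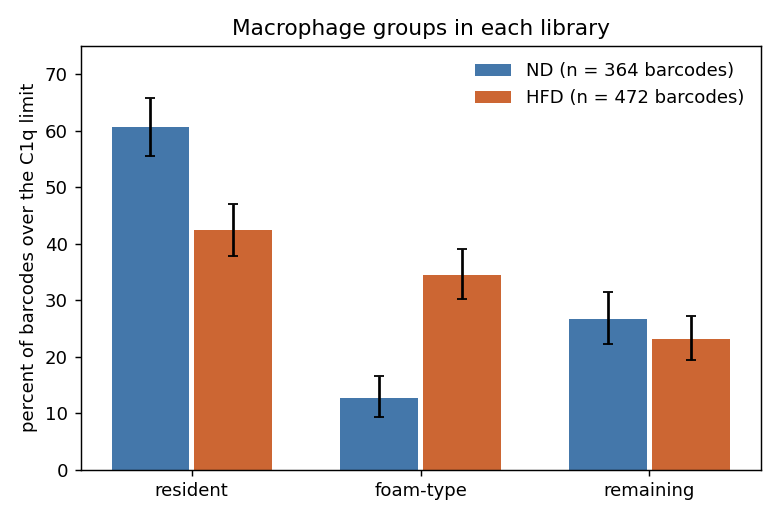
Share of the 364 ND and 472 HFD barcodes over the C1q limit (vertical axis, percent) that were resident, foam-type or remaining macrophages, with exact 95% binomial intervals of counting error as bars. Resident macrophages took 60.7% in ND and 42.4% in HFD, and foam-type macrophages 12.6% and 34.5%.

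The defining genes were unevenly spread over the members. Folr2 (chr7:101839988-101857194) was found in 95.9% of ND and 96.0% of HFD members. Lyve1 (chr7:110850607-110863239) was found in 80.1% and 73.0%, and Cd163 (chr6:124304656-124330527) in 69.2% and 69.0%. Fcna (chr2:25624666-25628030) and Cd209f (chr8:4102787-4105835) were found in fewer, 49.3% and 56.5% for Fcna, 38.5% and 47.0% for Cd209f. In fibroblasts, which should lack them, Folr2 was found in 0.588% of ND and 0.228% of HFD barcodes and Lyve1 in 0.980% and 0.685%, at median depths of 3849.5 and 4449 UMIs, far below the shares in members. All 5 genes were found in 39 of 221 ND and 47 of 200 HFD members, and only 1 of the 5 in 14 of each. UMIs of the 5 genes together had a median of 16 in ND members (3 to 316) and 16.5 in HFD members (3 to 89).

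Summed levels of the defining genes were close in the 2 diets for 4 of the 5. Folr2 stood at 1383 CPM in ND and 1141 CPM in HFD. Lyve1 stood at 909 and 794 CPM and Cd163 at 647 and 812 CPM. Cd209f stood at 479 CPM in ND and 529 CPM in HFD, and the interval of its log2 ratio, HFD over ND, ran from −0.03 to 0.31. Fcna was the exception, with 856 CPM in ND and 342 CPM in HFD (log2 −1.32, −1.50 to −1.15), but 1 ND barcode held 227 of its 952 UMIs. Without the barcode richest in Fcna in each library it was just short of 2-fold, and without the 5 richest the log2 ratio was −0.55, so that a few barcodes set its size.

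Few barcodes lay at the edge of the rule. Members with exactly 3 UMIs of the 5 genes numbered 15 in ND and 9 in HFD, and barcodes over the C1q limit with 2 numbered 14 and 17. Mrc1, which the rule did not use, stood at 1000 CPM just inside and 824 CPM just outside in ND, and at 911 and 599 CPM in HFD. UMIs of the foam cell genes occurred in 34.8% of ND and 52.0% of HFD members, with a highest count of 4 in ND and 7 in HFD, and 2 HFD members had as many of these as of the resident genes.

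Against the other macrophages, the members were set apart by receptors, lectins and secreted proteins beyond the 5 that chose them. Of 7403 genes with at least 50 UMIs in the groups and libraries together, 322 (4.35%) were at least 2-fold higher in members than in the pooled foam-type and remaining macrophages of the same library, in both libraries, and 232 (3.13%) were at least 2-fold lower. The rule itself favours genes that go with its 10 markers, so these counts are no test. The shares of 4.35% and 3.13% are those to set beside the count of each gene list compared with the other macrophages below. Of the 322 genes, 162 were also 2-fold higher than in each of the other groups separately, as were 107 of the 232 lower genes. The median log2 ratio over all genes was 0.14 in ND and 0.06 in HFD. The pooled comparison cells differed in make-up between the libraries. Foam-type barcodes held 331990 of their 744370 UMIs in ND and 1594874 of 2163753 in HFD. A ratio over the others in ND and the same ratio in HFD thus have unlike denominators, and their difference is no measure of diet. When barcodes were first thinned to 1000 UMIs, 137 ND and 123 HFD barcodes met the rule, of which 136 and 117 were members before, former members joined the comparison cells, and 72 genes were higher and 91 lower.

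The resident signature outside the rule was broad. Of 20 genes known from resident macrophages, 15 were higher in members and none was lower, with a median log2 ratio of 2.13 in ND and 2.99 in HFD. Mrc1, the mannose receptor CD206, stood at 1469 CPM in ND and 1536 CPM in HFD members, at 271 and 130 CPM in foam-type, and at 618 and 673 CPM in remaining macrophages. After thinning the ND log2 ratio of Mrc1 was 0.93, short of 2-fold. It was found in 99.1% of ND and 99.0% of HFD members against 54.3% and 44.8% of foam-type macrophages. Cbr2, a carbonyl reductase, stood at 970 and 1115 CPM in members, 66.3 and 25.7 CPM in foam-type and 235 and 228.5 CPM in remaining macrophages. F13a1, the A chain of clotting factor XIII, stood at 1570 and 1583 CPM in members, 199 and 39.5 CPM in foam-type and 405 and 429 CPM in remaining macrophages. In these genes the remaining macrophages lay between the members and the foam-type group in both libraries.

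The same order held for Gas6, a bridge between apoptotic cells and their receptors, which was 8.37-fold higher in members than in the others in HFD (log2 2.17 in ND and 3.07 in HFD). Maf, the transcription factor whose letters are marked above, was 4.11-fold and 6.40-fold higher, and Stab1, a scavenger receptor for modified lipoproteins, 4.26-fold and 4.71-fold. Ednrb, the endothelin receptor B, stood at 332 CPM in ND and 430 CPM in HFD members, 16.5-fold and 22.7-fold above the others. Timd4, a receptor for phosphatidylserine on dying cells, stood at 210 and 91.1 CPM in members, at 7.27 and 5.27 CPM in remaining macrophages, and had no UMI in foam-type macrophages of either diet. The 5 of 20 that did not reach 2-fold in both libraries were Igf1, Mgl2, Wfdc17, Selenop and Pltp. Selenop, the selenium carrier, was 3.32-fold higher in members in ND and 1.77-fold in HFD.

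**Figure D2:**
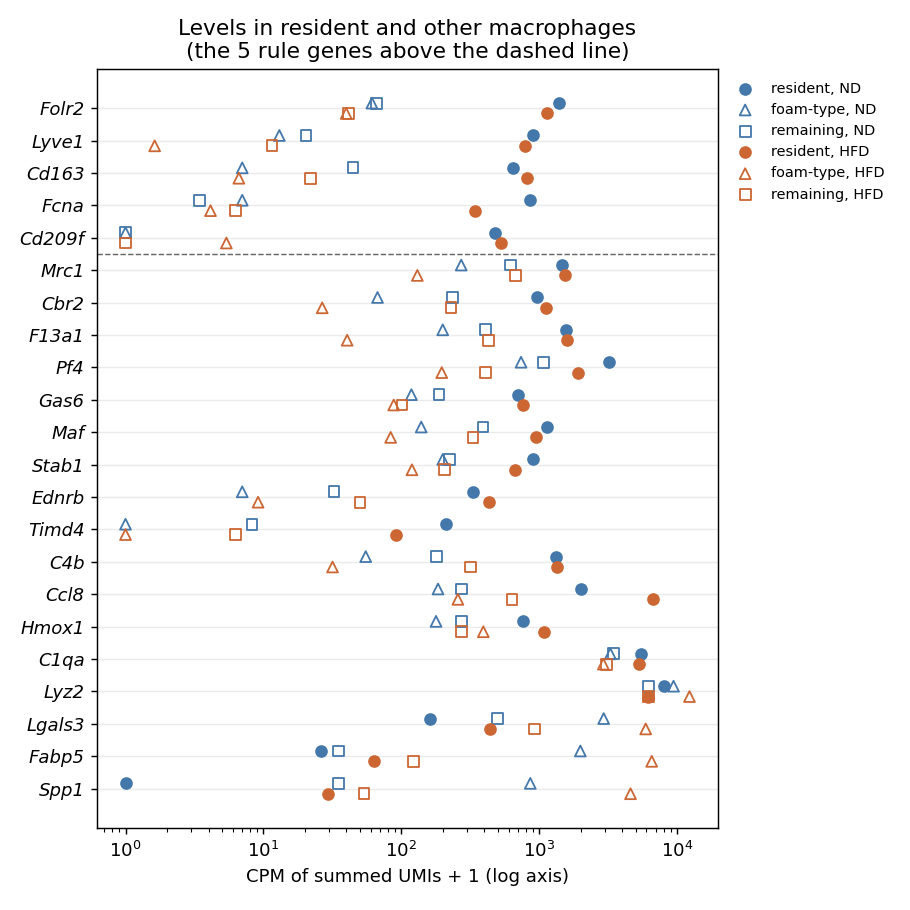
Summed level of 22 genes (horizontal axis, CPM + 1, log scale) in resident (filled circles), foam-type (open triangles) and remaining (open squares) macrophages of the ND (blue) and HFD (orange) libraries, with the genes of the rule above the dashed line. Mrc1 stood at 1469 and 1536 CPM in members and at 271 and 130 CPM in foam-type macrophages, and Lgals3 at 162 and 436 CPM against 2937 and 5926 CPM.

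A run of Cd209 lectin genes on chromosome 8 followed Cd209f. Cd209g (chr8:4134098-4137707) stood at 237 CPM in ND and 201 CPM in HFD members and was 176-fold and 87.0-fold above the others. Cd209d (chr8:3871824-3878555) stood at 128 and 231 CPM, and Cd209b (chr8:3917655-3926844) at 67.5 and 96.5 CPM. These genes are close copies, so that reads may have been assigned to the wrong copy, and their separate levels are uncertain. Other genes with the largest ratios were Vsig4, the complement receptor CRIg, at 105 and 44.7 CPM with no UMI in the other ND macrophages, and Tslp, thymic stromal lymphopoietin, at 47.7 and 35.7 CPM. In the foam-type group each of these genes stood at or near 0.

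Of 11 complement genes other than C1q, 5 were higher in members and 1 was lower, beside 4.35% higher and 3.13% lower of all genes compared. C4b, the fourth component, stood at 1321 CPM in ND and 1338 CPM in HFD members and was 10.7-fold and 12.7-fold above the others. Cfp and Cfb, properdin and factor B of the alternative pathway, and Vsig4 were also higher. The lower gene was Itgax, the CD11c chain, with no UMI in ND and 8 in HFD members. Of 12 genes of iron and haem handling, Hmox1, the haem oxygenase, and Cp, ceruloplasmin, were higher: Hmox1 stood at 762 CPM in ND and 1083 CPM in HFD members, with log2 ratios of 1.73 and 1.58 over the others. Fth1, the ferritin heavy chain, was 2.12-fold and 3.78-fold lower, but in ND it was short of 2-fold in 4 other settings (log2 from −0.96 to −0.35). After thinning Cp, Cfp and C4b were short of 2-fold in ND (log2 0.74, 0.95 and 0.96), and Cfp in HFD (log2 0.99).

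Receptors for apoptotic cells and modified lipoproteins split. Mrc1, Stab1, Timd4, Colec12 and Dab2 were higher in members among 15 such genes, while Axl, Mfge8 and Itgav were lower. Axl, a receptor for Gas6, stood at 107 CPM in ND and 71.5 CPM in HFD members, and Mfge8, a bridging protein, was 8.32-fold and 42.5-fold lower than in the others. The ND value of Mfge8 turned to a higher level in members, with a log2 ratio of 1.18, when the C1q limit was set at 0.5%. Among transcription factors, Maf was higher and Bhlhe40 and Bhlhe41 were lower of 16, with Bhlhe40 3.82-fold and 9.16-fold lower. Bhlhe41 was short of 2-fold in ND as a mean over barcodes (log2 −0.30), and in HFD its log2 ratio was 0.16 after thinning. Of 18 immediate early genes, Klf2 and Klf4 were higher and none was lower. In ND, Klf4 was short of 2-fold in 3 other settings (log2 from 0.94 to 0.99), and after thinning Klf2, Dab2 and Itgav were too (log2 0.73, 0.69 and −0.60). In HFD, Klf2 and Klf4 were short of 2-fold after thinning (log2 0.52 and 0.89). Interferon genes had 3 of 14 higher, Ifit1, Ifitm3 and Rsad2, but after thinning the ND log2 ratios were −1.72 for Ifit1, −0.38 for Rsad2 and 0.48 for Ifitm3, which was short of 2-fold in ND in 5 settings. In HFD, Ifitm3 was short of 2-fold after thinning (log2 0.82), Rsad2 in 3 settings (log2 from 0.89 to 0.95), and Ifit1 when barcodes with both Pecam1 and Cdh5 were kept (log2 0.92).

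Genes of the foam cell and of lipid storage were low in members, beyond those of the rule. Of 14 other foam cell genes, 7 were lower and none was higher, with a median log2 ratio of −1.11 in ND and −2.37 in HFD. Lgals3, galectin 3, stood at 162 CPM in ND and 436 CPM in HFD members against 2937 and 5926 CPM in foam-type macrophages. Spp1, osteopontin, had no UMI in ND members, where 0 of 221 barcodes allows a share of barcodes with a UMI of up to 1.66% (exact Clopper-Pearson bound, which does not limit the share of cells that express the gene), and stood at 28.6 CPM in HFD members, against 861 and 4598 CPM in foam-type macrophages. After thinning the ND log2 ratio of Spp1 over the others was −0.87, short of 2-fold. Lpl, Fabp5, Pparg and Hilpda of 15 lipid storage genes were lower (Pparg in HFD and Hilpda in ND short of 2-fold, with log2 ratios of −0.92 and −0.96, when barcodes with both Pecam1 and Cdh5 were kept), as were Abcg1 and Nceh1 of 13 genes of cholesterol efflux and ester handling. Among cathepsin and lysosomal genes, Ctsk, Ctsl, Ctss and Psap were lower and Ctsf was higher. In ND, Ctsl turned with the C1q limit at 0.5% (log2 0.22) and was short of 2-fold after thinning and as a mean over barcodes (log2 −0.56 and −0.17). Ctss and Psap were short of 2-fold in ND in several settings, with log2 ratios from −0.91 to −0.21 and from −0.99 to −0.36. After thinning Ctsf was too (log2 0.05). Of 10 matrix proteases and inhibitors, Mmp9 was higher and Mmp12, Mmp13, Mmp14, Mmp19 and Adam8 were lower, of which Mmp14 and Mmp19 were short of 2-fold in ND after thinning (log2 −0.55 and −0.14), and Mmp13 in HFD with at most 20% mitochondrial UMIs (log2 −0.79). Mmp9, gelatinase B, stood at 278 and 98.3 CPM in members and was 8.62-fold and 19.3-fold above the others.

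Between diets, few genes of the members differed, and more were lower than higher in HFD. Of 4916 genes that reached 50 UMIs when the libraries were added, 49 (0.997%) were at least 2-fold higher in HFD and 167 (3.4%) at least 2-fold lower, with a median log2 ratio of −0.12 over all genes. The higher genes include 4 haemoglobin genes. None of these has a replicate. The shares of 0.997% and 3.4% are those to set beside the count of each gene list compared between diets. Without the barcode richest in the gene in each library, 47 of the 49 and 152 of the 167 were still past 2-fold, and without the 5 richest, 45 and 137, so that the lower genes leaned more on a few barcodes. Of the 49 higher genes, 35 had enough UMIs in foam-type macrophages, where 17 were also 2-fold higher in HFD and 3 were 2-fold lower, beside 5.83% and 6.35% of all genes compared there. Of the 167 lower genes, 58 had enough, with 24 also lower and 4 higher. In remaining macrophages 25 of the 49 had enough, with 12 also higher and 4 lower, and 46 of the 167, with 14 also lower and 4 higher, beside 1.88% higher and 3.55% lower of all genes there.

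Among the CC chemokines, Ccl8 and Ccl6 were higher in HFD members. Ccl8, a chemokine that draws monocytes and lymphocytes, stood at 2010 CPM in ND and 6729 CPM in HFD members, 3.35-fold higher (log2 1.74, 1.68 to 1.81). It was found in 133 of 221 ND and 161 of 200 HFD members, and its level in a member had a median of 302 CPM in ND and 3141 CPM in HFD. Ccl6, a CC chemokine of myeloid cells, stood at 2610 and 6395 CPM, 2.45-fold higher (log2 1.29, 1.23 to 1.36), and was found in 215 ND and all 200 HFD members. In ND and HFD fibroblasts Ccl6 was found in 1.18% and 5.71%, and Ccl8 in 2.75% and 5.25%, far below the members, and the part of free RNA was not tested. The level of Ccl6 in a member had a median of 1870 CPM in ND and 5810 CPM in HFD. The middle 50% of members lay from 789 to 3661 CPM in ND and from 3920 to 8522 CPM in HFD. Members of 1 library are not replicates of a diet, so this spread is description only. Both differences were as large without the 5 richest barcodes of each library, with log2 ratios of 2.02 for Ccl8 and 1.36 for Ccl6.

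The other macrophages of the same libraries differed between the diets as follows. The foam-type groups of the libraries were not alike in make-up: Gpnmb was found in 4.35% of ND and 82.2% of HFD foam-type barcodes, Syngr1 in 8.70% and 71.8%, which are genes of the rule, and Spp1 in 19.6% and 70.6%. A ratio by diet in the foam-type group therefore sets unlike cells side by side. In foam-type macrophages, Ccl8 stood at 184 CPM in ND and 256 CPM in HFD, and Ccl6 at 1889 and 1327 CPM. In remaining macrophages, Ccl8 stood at 272 and 635 CPM and Ccl6 at 1302 and 2983 CPM. In the remaining group the log2 ratios were 1.22 for Ccl8 and 1.20 for Ccl6, the latter close to that of the members. In the foam-type group they were 0.48 and −0.51. Whether the groups of cells differ in this was not tested, since each diet had 1 library.

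**Figure D3:**
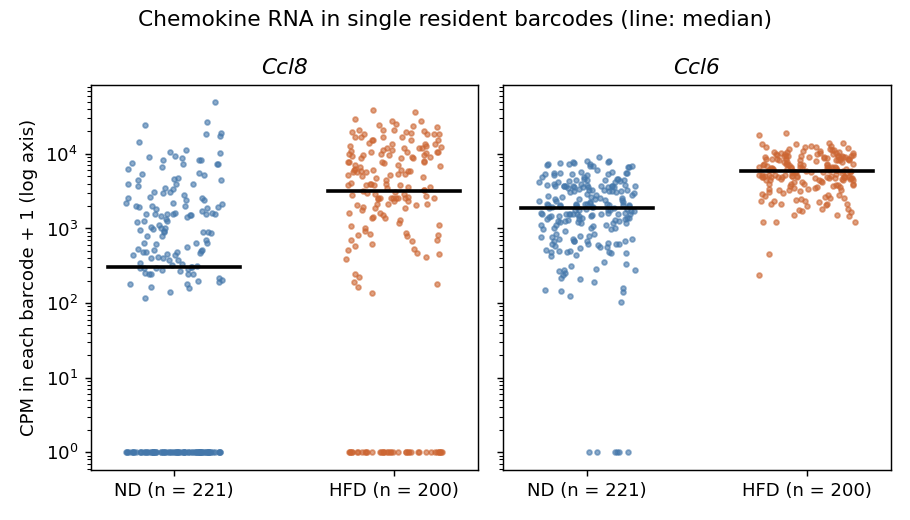
Ccl8 and Ccl6 in each resident barcode (vertical axis, CPM + 1, log scale; points spread sideways for display) of the ND (n = 221) and HFD (n = 200) libraries, with the median as a line. The medians were 302 and 3141 CPM for Ccl8 and 1870 and 5810 CPM for Ccl6, and the points at the bottom of the Ccl8 panel are members with no UMI of it.

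The rest of the CC chemokines did not move together. Of 9 with enough UMIs, Ccl6 and Ccl8 were 2-fold higher in HFD and Ccl24 was lower, and the median log2 ratio was −0.24. Ccl9, a neighbour of Ccl6 on chromosome 11, stood at 1190 CPM in ND and 2052 CPM in HFD (log2 0.79). Ccl7 stood at 692 and 883 CPM, and Ccl2, the main ligand of CCR2, at 1121 and 813 CPM. Ccl24, eotaxin 2, stood at 342 and 96.5 CPM and was found in 126 ND and 48 HFD members, 3.54-fold lower in HFD. Ccl24 was 14.1-fold and 29.8-fold above the other macrophages, and Ccl8 8.65-fold and 18.9-fold. After thinning the ND log2 ratio of Ccl8 over the others was 0.40, short of 2-fold.

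Of 6 CXC chemokines with enough UMIs, Cxcl13, Cxcl9 and Cxcl10 were lower in HFD and none was higher. Cxcl13, which draws B cells, stood at 434 CPM in ND and 19.7 CPM in HFD, but its 483 ND UMIs lay in 15 members. Cxcl9 lay in 7 ND and 4 HFD members. Cxcl10 stood at 314 and 148 CPM (log2 −1.08) and was short of 2-fold without its richest barcode (log2 −0.86). Cxcl2, the most abundant, stood at 3258 CPM in ND and 3311 CPM in HFD.

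Several genes of lipid storage were higher in HFD members, and Srebf2, the driver of sterol synthesis, was lower. Of 12 lipid storage genes with enough UMIs, Plin2, Fabp4, Fabp5 and Mgll were 2-fold higher and none was 2-fold lower, with a median log2 ratio of 0.42. Of all genes compared, 0.997% were higher and 3.4% lower, with a median of −0.12. The 15 genes of the whole list summed to 1466 CPM in ND and 1978 CPM in HFD members. Their sums were higher in HFD in the other cells too: 1676 and 2584 CPM in remaining macrophages, 5509 and 11216 CPM in foam-type macrophages. In fibroblasts they were 1375 and 2446 CPM, so the difference was not particular to the members. Plin2, the coat protein of lipid droplets, stood at 157 CPM in ND and 406 CPM in HFD, found in 107 and 154 members (log2 1.38, 1.12 to 1.64). Thinned to 1000 UMIs in each barcode, the log2 ratio of Plin2 was 0.59. Plin2 was found in 8.73% of ND and 15.1% of HFD fibroblasts and in 5.25% and 19.0% of T cells, and the part of free RNA was not tested. Fabp4, a fatty acid carrier that is also abundant in endothelium, stood at 296 and 608 CPM (log2 1.04), and at a log2 ratio of 0.67 when members with over 2 UMIs of other lineages were left out. The endothelial markers, led by Fabp4 itself, summed to 449 CPM in ND and 783 CPM in HFD. Fabp5 stood at 25.2 and 62.5 CPM and Mgll, a lipase, at 12.6 and 33.9 CPM. Cd36, a receptor for oxidised lipoprotein, went the other way, with 587 and 355 CPM (log2 −0.73).

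Of 13 genes of cholesterol efflux and ester handling, Abcg1 and Lpcat3 were 2-fold higher in HFD and Nr1h3 was lower, with a median log2 ratio of 0.31. Abcg1, a cholesterol exporter and target of LXR, stood at 59.4 CPM in ND and 140 CPM in HFD and was found in 37 of 221 and 101 of 200 members (log2 1.24, 0.82 to 1.68). Lpcat3, a lipid remodelling enzyme, had 18 and 37 UMIs and was short of 2-fold as a mean over barcodes (log2 0.96). Abca1, the other main exporter, stood at 497 and 648.5 CPM. Nr1h3, which encodes LXR alpha, stood at 36.9 and 15.2 CPM, with 41 and 17 UMIs, and its log2 ratio of −1.28 became −0.55 without the 5 richest barcodes. Apoe itself left 53.1 and 46.5 CPM in the deletion mice, where no wild type was at hand for comparison.

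Of 15 genes of sterol synthesis and uptake only 3 had enough UMIs. Srebf2, the transcription factor that drives this pathway, stood at 61.2 CPM in ND and 22.3 CPM in HFD, found in 55 and 21 members (log2 −1.45, −2.18 to −0.77), and at a log2 ratio of −0.84 after thinning. Insig1, which holds the pathway in check, stood at 90.9 and 47.3 CPM and was short of 2-fold. In foam-type macrophages Srebf2 stood at 54.2 and 16.3 CPM. The 15 genes together summed to 318 CPM in ND and 152 CPM in HFD members. Their sums were lower in HFD also in foam-type (265 and 141 CPM) and remaining macrophages (330 and 165 CPM), and in fibroblasts (362 and 145 CPM). The lower level was thus not particular to the members or to macrophages.

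Of 12 other foam cell genes, Lgals3, Fabp5 and Abcg1 were higher in HFD members and Cd9 and Cd5l lower. Lgals3 stood at 162 CPM in ND and 436 CPM in HFD and was found in 73 and 137 members (log2 1.43, 1.18 to 1.68), still 10.6-fold below the other HFD macrophages. Lgals3 was also found in more HFD than ND barcodes of other types, 8.73% and 21.9% of fibroblasts and 10.2% and 23.8% of T cells, and the part of free RNA in its difference was not tested. Cd9, a tetraspanin, was short of 2-fold when members with UMIs of other lineages were left out (log2 −0.22). Cd5l, a secreted protein of tissue macrophages, stood at 145 and 7.15 CPM, but its 161 ND UMIs lay in 8 members. Of 18 cathepsin and lysosomal genes none was 2-fold higher. Ctsd, cathepsin D, stood at 853 and 1344 CPM (log2 0.66).

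**Figure D4:**
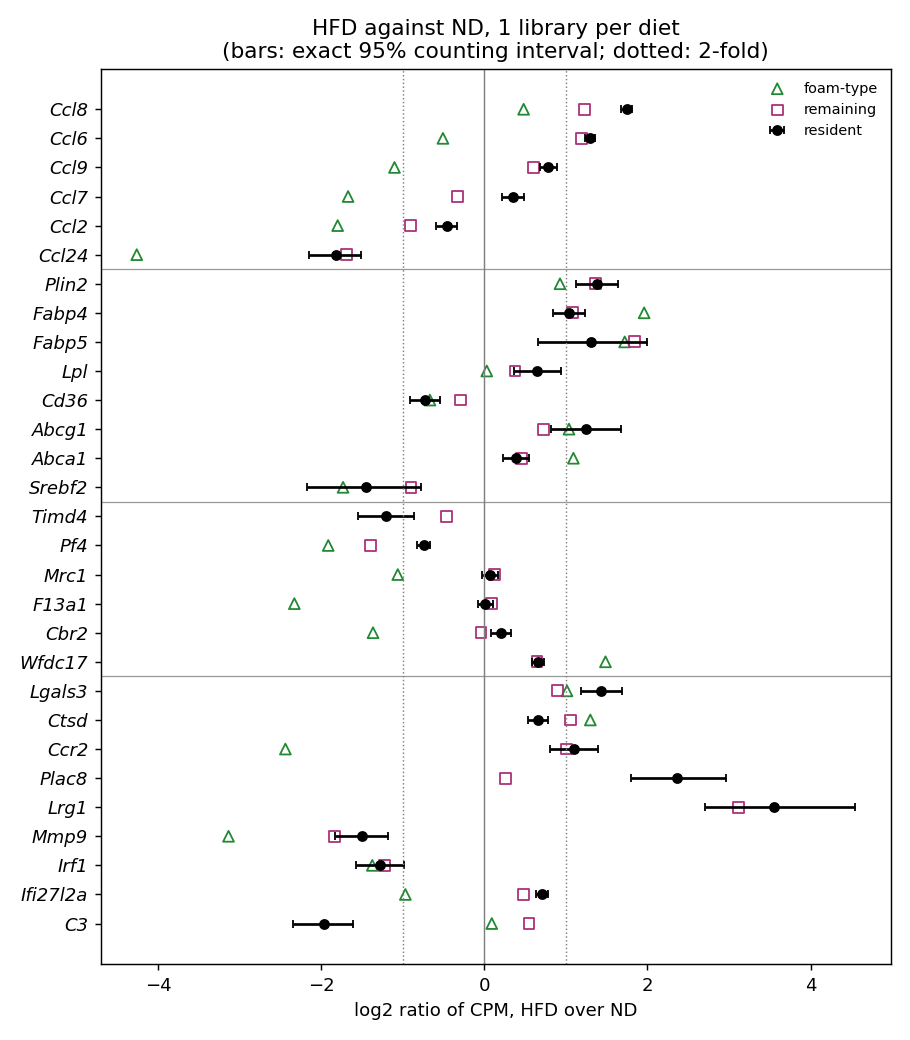
Log2 ratio of summed CPM, HFD over ND (horizontal axis), for 29 genes in resident macrophages (filled circles, bars: exact 95% counting interval), with the ratio in foam-type (triangles) and remaining (squares) macrophages beside it and dotted lines at 2-fold. Resident Ccl8 lay at 1.74, Plin2 at 1.38 and Srebf2 at −1.45, and no foam-type point is drawn where a library had no UMI (Timd4, Plac8 and Lrg1).

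Of the 20 resident genes outside the rule, 0 were 2-fold higher in HFD and 1, Timd4, was lower, beside 0.997% higher and 3.4% lower of all genes compared, so the count is near that of all genes. Their median log2 ratio was 0.16 beside −0.12 over all genes. Mrc1 stood at 1469 CPM in ND and 1536 CPM in HFD (log2 0.06, −0.03 to 0.16), and F13a1 at 1570 and 1583 CPM (log2 0.01, −0.08 to 0.11). Cbr2 had a log2 ratio of 0.20 and Gas6 of 0.11. Pf4, the chemokine CXCL4, stood at 3185 and 1900 CPM (log2 −0.74), short of 2-fold. Timd4 was found in 100 of 221 ND and 59 of 200 HFD members (log2 −1.20, −1.55 to −0.86), but its log2 ratio was −0.18 after thinning to 1000 UMIs, near the level of few UMIs.

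Of 13 receptors for apoptotic cells and lipoproteins, Marco, Colec12 and Timd4 were lower in HFD. Colec12, a collectin receptor, stood at 92.7 CPM in ND and 33.9 CPM in HFD, found in 66 and 30 members. All 72 UMIs of Marco lay in 5 ND members. Of 10 complement genes C3 and Vsig4 were lower: C3, the central component, stood at 277 and 70.6 CPM (log2 −1.97) and was found in 41 and 40 members, and Vsig4 at 105 and 44.7 CPM (log2 −1.24, or −0.99 without its richest barcode). None of 11 iron and haem genes was past 2-fold, and Hmox1 stood at 762 and 1083 CPM (log2 0.51) beside haemoglobin RNA that differed as given above.

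Interferon genes divided. Of 14 interferon genes, 5 were lower in HFD, Ifit1, Ifit2, Ifit3, Rsad2 and Irf1, and none was 2-fold higher, with a median log2 ratio of −0.33. Over all genes compared, 3.4% were lower and 0.997% higher, with a median of −0.12. For Ifit1, Ifit2, Ifit3 and Rsad2 the call ended without the 5 richest barcodes, with log2 ratios of −0.48, 0.73, −0.01 and −0.44. Irf1, a transcription factor of the interferon response, stood at 292 CPM in ND and 121 CPM in HFD, found in 130 and 83 members (log2 −1.28, −1.58 to −0.98). Ifi27l2a, the most abundant of the list, stood at 2279 and 3719 CPM (log2 0.71). Mmp9 stood at 278 and 98.3 CPM and was found in 86 and 53 members (log2 −1.50), and Timp3, its fellow among the 4 matrix genes with enough UMIs, was lower too (72.0 and 31.3 CPM), but short of 2-fold without the highest doublet scores (log2 −0.55).

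Of 11 cytokines and growth factors, Il1b was 2-fold higher in HFD, with 33 ND UMIs in 18 members and 108 HFD UMIs in 22. Its log2 ratio of 1.70 was 0.60 when barcodes with both Pecam1 and Cdh5 were kept. None of 7 MHC class II genes, 18 immediate early genes, 10 heat shock genes or 13 transcription factors was past 2-fold. The immediate early genes, which rise during tissue digestion, summed to 19738 CPM in ND and 15803 CPM in HFD members. Of 3 cycling genes with enough UMIs, Top2a and Stmn1 were lower in HFD, Stmn1 short of 2-fold after thinning (log2 −0.58), and UMIs of 7 cycling genes were found in 18 ND (8.14%) and 9 HFD members (4.50%).

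Of 5 monocyte genes with enough UMIs, Ccr2 and Plac8 were 2-fold higher in HFD members and none was lower, with a median log2 ratio of 0.00 (6.86e-05). Ccr2, the receptor by which monocytes enter tissue, stood at 125 CPM in ND and 267 CPM in HFD, found in 30 of 221 and 69 of 200 members (log2 1.09, 0.80 to 1.40), and at a log2 ratio of 0.87 with at most 20% mitochondrial UMIs. Plac8 stood at 27.9 and 143 CPM, found in 13 and 61 members (log2 2.36). Plac8 was also found in more HFD than ND barcodes of other types, 26.3% and 61.0% of fibroblasts and 13.1% and 33.3% of T cells, and the part of free RNA in its difference was not tested. Ccr2 was found in 0.392% of ND and 0.913% of HFD fibroblasts. In remaining macrophages it was found in 40.2% of ND and 78.9% of HFD barcodes, and in foam-type macrophages in 41.3% and 17.8%. A higher share in HFD was thus not particular to the members. Ly6c2, Chil3, Vcan and Ace had too few UMIs to compare. Of dendritic cell genes, Cd209a was higher, with 54.0 and 158 CPM, and Siglech, a gene of plasmacytoid dendritic cells and some macrophages, lower, with 42.3 and 8.93 CPM.

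With mitochondrial and haemoglobin genes left out, the genes with the largest ratios in favour of HFD were Lrg1, Nr1d1, Plac8, Thbs1, Slc27a1, Mcoln2, Emb, Ly6a, Nxpe5 and Ccl8. Lrg1, a secreted glycoprotein, stood at 10.8 CPM in ND and 127 CPM in HFD and was found in 11 and 62 members, 11.8-fold higher. Nr1d1, the clock repressor REV-ERB alpha, stood at 8.10 and 44.7 CPM, found in 9 and 33 members. Slc27a1, a fatty acid transporter, stood at 16.2 and 67.0 CPM, found in 13 and 64 members, and Ly6a, the surface protein Sca-1, at 75.6 and 274 CPM. Thbs1, thrombospondin 1, rested on 9 and 13 members, and its log2 ratio of 2.18 was 0.14 when barcodes with both Pecam1 and Cdh5 were kept. Mcoln2, Emb and Nxpe5 were found in 35, 60 and 72 HFD members.

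The genes with the largest ratios in favour of ND were Cxcl13, Cd5l, Col3a1, Col1a1, Cxcl9, Kif23, Ebf1, Serpinf1, Col1a2 and Lilra5, and the collagens and Serpinf1 among them are genes of fibroblasts. Col1a2, a collagen chain, stood at 255.5 CPM in ND and 37.5 CPM in HFD, with 57.7% of its ND UMIs in 1 barcode. Of 8 fibroblast markers 7 were 2-fold lower in HFD members. When members with over 2 UMIs of other lineages were left out, 19 in ND and 11 in HFD, the log2 ratio of Col1a2 was −0.59 and that of Dcn −0.23, a choice that itself removes collagen UMIs. Kif23, a motor protein of dividing cells, was found in 27 ND and 5 HFD members, and Lilra5, a leukocyte receptor, in 35 and 10.

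Members were not uniform in MHC class II genes. UMIs of 9 MHC class II genes made up a median of 2.44% of the UMIs of a member in ND and 2.32% in HFD, with the middle 50% from 0.786 to 4.11% and from 0.647 to 3.85%. In foam-type macrophages the median was 5.10% in ND and 1.51% in HFD, and in remaining macrophages 5.07% and 4.57%. Lyve1 is one of the genes that chose the members, so a split by it is description only. Members with a UMI of Lyve1 were lower in these genes: the median was 2.14% in 177 ND members with it and 4.03% in 44 without, and 1.48% in 146 HFD members with it and 3.91% in 54 without. The direction was the same in both libraries, and the median depths of the ND groups were close, 4478 and 4648.5 UMIs, as were those of the HFD groups, 5400.5 and 5328 UMIs.

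**Figure D5:**
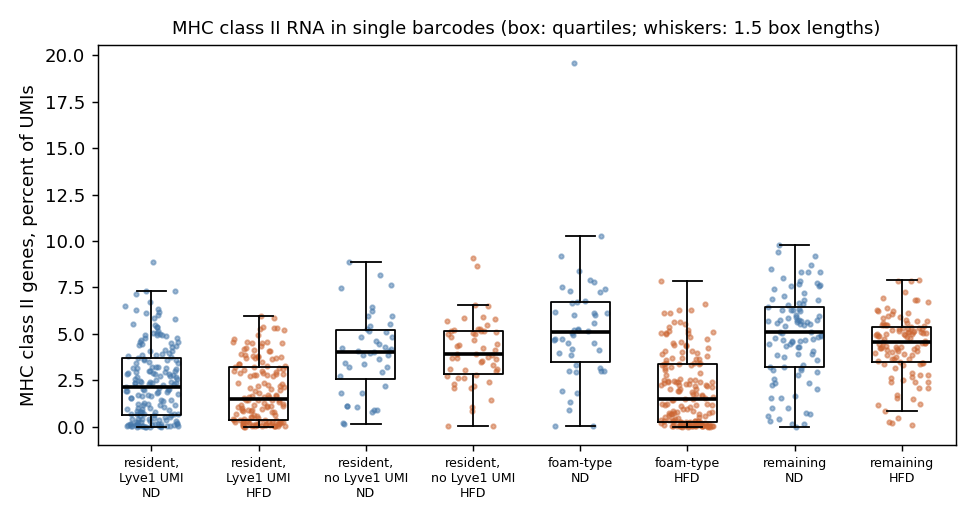
UMIs of 9 MHC class II genes as a percent of all UMIs in each barcode (vertical axis) for resident macrophages with and without a UMI of Lyve1, foam-type and remaining macrophages of the ND (blue) and HFD (orange) libraries, with boxes from quartile to quartile and the median as a line. The medians of resident macrophages with Lyve1 were 2.14% in ND and 1.48% in HFD, below 4.03% and 3.91% without it.

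Ccr2 and Timd4, which the rule did not use, stood at opposite levels of MHC class II. Summed over members with a UMI of Lyve1, Ccr2 stood at 88.3 CPM in ND and 164 CPM in HFD, and over those without at 277 and 547 CPM. Timd4 stood at 250 and 119 CPM in members with Lyve1 and at 41.5 and 16.6 CPM in those without. The 100 ND and 59 HFD members with a UMI of Timd4 held 16365 and 13789 CPM of MHC class II genes, and the members without it 34471 and 29721 CPM. The 30 ND and 69 HFD members with a UMI of Ccr2 held 42977 and 38033 CPM, and those without it 22372 and 17042 CPM. The members with Timd4 were thus lower in MHC class II and those with Ccr2 higher, in both libraries. Median depth with and without Ccr2 was 5576 and 4421 UMIs in ND, and 5640 and 5267 UMIs in HFD. With and without Timd4 it was 4679.5 and 4391 UMIs in ND, and 5471 and 5269 UMIs in HFD. The part of depth in these splits was not tested.

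Over members thinned to 1000 UMIs, which share their library and its free RNA, Spearman's rho between Lyve1 and MHC class II was −0.25 in 221 ND and −0.38 in 200 HFD members, and between MHC class II and Ccr2 0.24 and 0.36. Folr2 and Lyve1 had a rho of 0.25 and 0.20. Between Ccl8 and MHC class II it was 0.03 in ND and −0.29 in HFD. In HFD, Ccl8 stood at 8981 CPM in the 131 members without a UMI of Ccr2 and 2926 CPM in the 69 with it, and in ND at 2149 and 1276 CPM. These are weak relations in sparse counts and are given as description.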

How the data were processed

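Single-cell suspensions of aortic arch were sequenced as 1 droplet library per diet. The deposited values were raw UMI counts per gene and barcode (31053 genes) that the authors made with Cell Ranger (3.0.1 in the file headers), and the submitters' processing notes name bcl2fastq, UMI-tools, Seurat 3.2.0, R 4.0.0 and mm10. The annotation used for counting was not given in the sources used here. The files held 10234 ND and 14225 HFD barcodes. Barcodes under 200 genes or 200 UMIs, or with more than 30% of UMIs from mitochondrial genes, were dropped, which left the numbers of cells the study states. No authors' cell annotation was used. Doublets were scored with Scrublet in scanpy 1.11.5, which marked 0 ND and 1 HFD barcode by its own threshold, so none was removed, and leaving out the highest scores, top 6% of each library, was an alternative. Counts were summed over the barcodes of a group and scaled to CPM (members: 1111656 UMIs in ND and 1119459 in HFD, so 3 UMIs are 2.70 and 2.68 CPM), with exact Poisson, Clopper-Pearson and conditional binomial 95% intervals. Genes were compared with at least 50 UMIs and at least a 2-fold ratio. Fibroblast and T cell barcodes had collagen and Dcn UMIs of at least 0.5%, or at least 3 T cell receptor complex UMIs, and C1q under its limit. The genes named were those of the rule, up to 4 abundant members and every member past 2-fold of each gene list, the 10 largest ratios in each direction with at least 4 UMIs in each library (mitochondrial and haemoglobin genes left out), and the 5 genes furthest apart in each library with fewer than that in the other. The members and lists were chosen with earlier results of these data known. Scripts were tested on simulated data. Coordinates are of GRCm38 (GENCODE). Python 3.11.15, numpy 2.4.6, scipy 1.17.1, pandas 2.3.3 and matplotlib 3.10.9 were used. Some genes are not reported here.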

Additional observations from a re-analysis of the deposited data

Results flagged for a closer look

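For 4 of the named genes the ratio of HFD to ND went opposite ways, past 2-fold, in resident and foam-type macrophages, and the difference between the groups of cells was not tested because each diet had 1 library. The foam-type barcodes also differed in make-up, with Gpnmb found in 4.35% in ND and 82.2% in HFD. Cd5l had a log2 ratio of −4.34 in resident and 2.85 in foam-type macrophages, and its ND UMIs lay in 8 resident barcodes. Ccr2 had 1.09 in resident and −2.44 in foam-type macrophages, while in remaining macrophages it was found in 40.2% of ND and 78.9% of HFD barcodes. Nr1h3 had −1.28 and 1.28, with 41 ND and 17 HFD UMIs in resident macrophages. Il1b had 1.70 and −1.15.

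Outside the comparisons, 119 HFD barcodes met the rule for the resident, foam cell and C1q genes but exceeded the limit on mitochondrial UMIs, against 11 in ND. Their mitochondrial share had a median of 36.2% in HFD and 38.4% in ND. Whether they are dying resident macrophages was not tested.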

How the results depend on the processing

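Of the summary values, shares and counts of genes, 78 of 104 held under the alternatives, and the others follow. With at most 20% mitochondrial UMIs, resident macrophages were 4.81% of kept and 66.1% of C1q barcodes in ND and 6.25% and 31.9% in HFD. With no mitochondrial limit they were 3.01% and 48.6% in ND and 3.20% and 35.5% in HFD. Thinned to 1000 UMIs, which makes the count of 3 UMIs harder to reach, they were 2.56% and 35.5% in ND and 4.49% and 23.0% in HFD. With at least 5 UMIs of the resident genes they were 53.3% of C1q barcodes in ND, and with C1q at 0.5% or more they were 47.0% in HFD. Keeping barcodes with both Pecam1 and Cdh5 gave 84 genes higher in HFD. After thinning, 13 genes were higher and 18 lower in HFD, and 72 were higher and 91 lower in members than in other macrophages. A minimum of 20 UMIs gave 153 higher and 524 lower in HFD, one of 100 gave 29 and 77, and none gave 444 and 1392, with 497 higher in members.

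Of single genes, 11 ratios turned. The log2 ratio of HFD over ND became 1.16 for Ifit1 and for Ifit2 after thinning, 0.73 for Ifit2 without its 5 richest barcodes, 0.33 for Dpt without the highest doublet scores and 0.35 for Igkc without members with UMIs of other lineages. The ND log2 ratio of members over others became 1.18 for Mfge8 and 0.22 for Ctsl with C1q at 0.5% or more, and 0.28 for Slc27a1, −1.72 for Ifit1 and −0.38 for Rsad2 after thinning, and the HFD ratio of Bhlhe41 became 0.16 after thinning. Of 59 named genes past 2-fold between diets, 26 were short of it under some alternative, and of 164 named ratios between groups of cells, 47. The causes were not tested. Leaving out the richest barcodes was chosen after seeing the data. Median-of-ratios scaling shifted all diet ratios by 0.12. No paired analysis was possible because each diet had 1 library and the labels give no replicate numbers. Depth limits genes under about 50 UMIs, and no setting replaces a replicate.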

Other observations

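Some gene groups of the members have not been described above. Of 14 cytokines and growth factors compared with the other macrophages, Gas6 and Pdgfc were 2-fold higher in members in both libraries, and Il1b, Il1a, Pdgfb and Vegfa were 2-fold lower. Il1b was 18.5-fold lower in ND and 3.43-fold lower in HFD, where its log2 ratio of −1.78 was −0.58 with at most 20% mitochondrial UMIs, short of 2-fold. After thinning Il1a in ND and Pdgfb in HFD were short of 2-fold (log2 −0.14 and −0.46), and Vegfa in both (log2 −0.55 and −0.67). Of 11 heat shock genes none was past 2-fold between the groups of cells, nor was any of 7 MHC class II genes, whose median log2 ratio was −0.86 in ND and 0.01 in HFD. Retnla, a secreted product of alternatively activated macrophages, stood at 3453 CPM in ND and 2482 CPM in HFD members, at 1286 and 82.8 CPM in foam-type and at 2170 and 1622 CPM in remaining macrophages. Fxyd2, a modulator of the sodium pump, stood at 431 and 301 CPM in members and at 15.1 and 15.7 CPM in foam-type macrophages, and Fgfr1, a fibroblast growth factor receptor, at 158 and 198 CPM in members and at 33.1 and 2.51 CPM in foam-type macrophages. Pla2g2d, a secreted phospholipase, stood at 128 and 31.3 CPM in members and at 18.1 and 0 CPM in foam-type macrophages. Retnla, Fxyd2, Fgfr1 and Pla2g2d were chosen after their values were seen.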
